A study of Oryza sativa with 8 samples.

Results

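The root transcriptomes of carbon dot and control rice (Oryza sativa) were compared at the sampling point named D4. Loci entered with an FPKM of at least 1 in 2 or more of the 4 D4 libraries, which left 21844 of the 55801 loci in the deposited table. FPKM are fragments scaled to gene length and library total, so levels of different genes can be compared on this scale. The second-highest of the 4 values was 1.00099 FPKM for the locus just inside this limit and 0.9995 FPKM for the locus just outside it.

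The study holds 8 libraries of poly(A)-selected root RNA in 4 groups of 2, with controls (CK, labelled as normal treatment) and carbon dot samples (100X) at D4 and again at D6. The labels used here give no cultivar, plant age or meaning of D4, D6 and 100X, and no mutant or transgene is named in any group. Carbon dots are carbon nanoparticles, applied here, by the title of the series, as a seed priming agent in work on root growth. The labels do not say that the 2 replicates of a group came from separate plants or cultures, so p-values measure the spread between these libraries, which may be technical.

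A growing root adds length through cell division in the meristem, followed by cell expansion, in which aquaporins admit water and expansins loosen the wall. Auxin, cytokinin, gibberellin and jasmonate set the balance between division, elongation and differentiation. Behind the growing zone the root takes up iron, phosphate, nitrogen and silicon, and when oxygen is short it turns to fermentation through pyruvate decarboxylase and alcohol dehydrogenase. Genes of these processes were followed through 30 lists.

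The libraries carried root transcripts. LOC_Os02g44310, a locus on the root marker list, stood at 2892 and 3549 FPKM in the controls and 2760 and 4119 FPKM with carbon dots, and all 5 root markers were members. Of 7 green shoot loci 1 was a member, and none was above 1.35 FPKM at D4. GLUA2, a seed storage glutelin gene, was the only member of 6 seed and aleurone loci, at 2.23 and 2.12 FPKM in the controls and 1.66 FPKM in both carbon dot libraries. Each D4 library had 28619 to 29365 loci above 0, with 4.0% to 4.37% of its summed FPKM in the top 10 loci.

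The values had nearly the same distribution in all 8 libraries, and this bears on every comparison here. Whole numbers could be recovered behind the 8 values of all 25627 loci above 0 in every library, within 0.003. Their denominators were 22.87 M in all 8 libraries and differed by at most 0.0098%. Of the 73 or 74 recovered numbers of at least 20000 in a library, 72 were present in all 8. At a limit of 1000, a library held 5431 to 5438 loci, and 804 distinct numbers were present in all 8. Loci can share a number, so these counts do not give the share that matched. Sorted from high to low, the first 10000 numbers differed between libraries by a median of 0.138% and by at most 1.51%. Normalisation of libraries to a common distribution leaves such values, and the labels used here record no such step. Sequencing depth therefore cannot be read from the files, and no counting interval is given.

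Near-exact ties occurred between libraries. COMT1, a lignin methyltransferase gene, was at 1430 FPKM in replicate 1 and 1334 FPKM in replicate 2 of both groups. Of 106 members with a mean of at least 500 FPKM, 16 were tied within 0.05% in a same-number pair. For such loci a difference of 0 cannot be told apart from a shared rank.

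No locus passed the threshold at D4 in the main fit. With no filter 2 loci passed, both lower. A model term for the replicate number (a replicate block) moved the count too, and its values stand with the processing alternatives. Across 22794 tested loci, 0 (0.0%) had an adjusted p under 0.05 in limma with Benjamini-Hochberg adjustment, and the smallest adjusted p was 0.438. At an unadjusted limma p under 0.05 there were 432 loci, 215 higher and 217 lower in the carbon dot libraries. The members among them were 201 higher (0.92% of members) and 209 lower (0.957%). If no locus differed, an unadjusted limit of 0.05 would be expected to pass a share of 0.05, more than was seen here. Each fit without 1 D4 library left 1 library in a group and raised the unadjusted count. For a single value, 2 libraries against 2 cannot give a two-sided exact permutation p below 0.333. The values that follow are therefore descriptions, and the absence of calls does not show that the roots were alike.

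Differences between the groups were small for most members. The median size of the log2(FPKM + 1) difference was 0.0894, and 95% of members lay within 0.401. This scale understates the change of low genes. The median difference itself was -0.012, and libraries that share nearly the same distribution tend to hold this value near 0. A mean difference of at least 1 was seen for 49 members in the higher direction (0.224%) and 14 in the lower (0.0641%). Both carbon dot libraries were above both controls for 1862 members (8.52%) and below both for 2314 (10.6%). Treating values within 0.05% of each other as ties, a tolerance chosen after seeing the data, left 1727 and 2312.

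The replicate number separated the 4 libraries more than the treatment. Across members, the 2 libraries numbered 1 correlated at 0.985 and the 2 numbered 2 at 0.989, against 0.973 between the controls and 0.964 between the carbon dot libraries. Such values run across genes, which are no replicates, and carry no p. Of the summed squared deviations within loci, 66.7% lay along the replicate number, 17.3% along the treatment and 16.0% in the remainder. The controls differed from each other by at least 1 on the log2 scale at 694 members, and the carbon dot libraries at 918.

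The same difference was then taken within each replicate number. It reached at least 1 in size at 266 members in replicate 1, of which 196 were higher in the carbon dot library, and at 114 members in replicate 2, of which 58 were higher. The 2 sets of differences had the same sign at 11055 members (50.6%), with a Pearson correlation of 0.0388 and a Spearman correlation of 0.0136 over members. Both differences were at least 1 higher at 11 members (0.0504%), both at least 1 lower at 5 (0.0229%), and opposite with both at least 1 in size at 9 (0.0412%). With a pseudocount of 0.1 in place of 1 these counts were 30, 28 and 49, so they depend on low values.

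**Figure D1:**
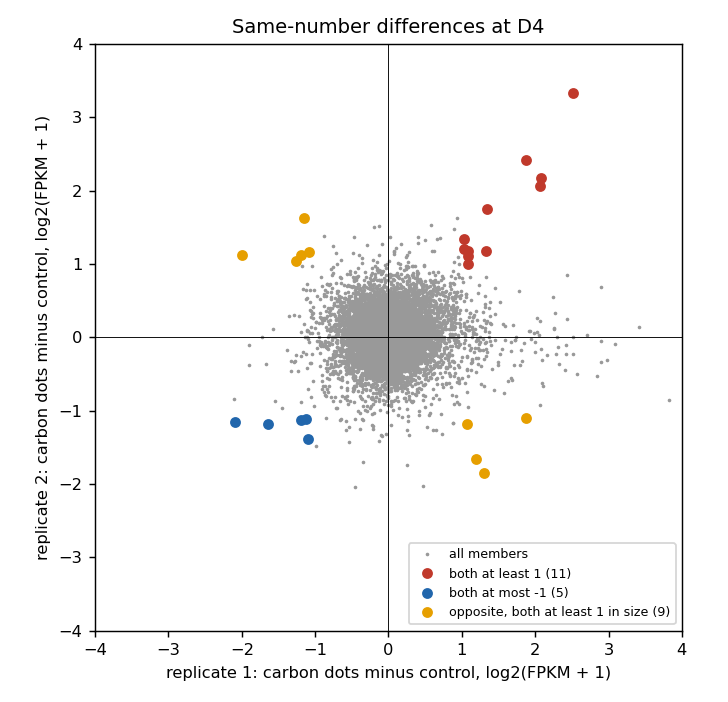
Each point is 1 of the 21844 members, placed by carbon dots minus control in replicate 1 (x axis) and in replicate 2 (y axis), both in log2(FPKM + 1). The cloud is round, and 11 members lie at least 1 above 0 on both axes, 5 at least 1 below on both and 9 in the opposite corners.

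Among members with a mean of at least 5 FPKM over the 4 libraries, the 2 loci with the largest differences shared by both pairs have no gene name in the files or the reference used here. LOC_Os10g02509, below that mean, is given with the D6 comparison. LOC_Os04g26330 was at 3.81 and 1.31 FPKM in the controls and at 26.4 and 22.33 FPKM with carbon dots, so the groups did not overlap. The means were 2.56 ± 1.76 and 24.4 ± 2.88 FPKM (SD, n = 2), a log2 difference of 2.92 ± 0.37 (SE, limma adjusted p = 1.0). At D6 this locus was at 1.58 and 0.788 FPKM in the controls and at 1.31 and 2.23 FPKM with carbon dots.

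LOC_Os07g03279 met the same rule in another way. It was at 1.47 and 43.4 FPKM in the controls and at 9.39 and 185.6 FPKM with carbon dots, so the groups overlapped. The differences within replicates 1 and 2 were both 2.07 on the log2 scale, while each replicate 2 library was far above its replicate 1 partner. Its log2 difference over the 4 libraries was 2.07 ± 1.88 (SE, limma adjusted p = 1.0). It was -0.01 without either D4_CK replicate 1 or D4_100X replicate 2, and 4.16 or 4.15 without D4_CK replicate 2 or D4_100X replicate 1. With the replicate block in only the 4 D4 libraries, this was the 1 locus past the threshold (limma adjusted p = 0.0374). That fit leaves 1 residual degree of freedom, and no label says that the numbers pair libraries.

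No member lower by at least 1 in both pairs reached a mean of 5 FPKM, the highest mean being 4.02. Of these 5, a pair of unnamed loci was chosen after their values were seen. LOC_Os02g04720 was at 2.14 and 1.26 FPKM in the controls and is listed at 0 in both carbon dot libraries. It was the only member listed at 0 in both libraries of a D4 group. LOC_Os03g54130 was at 4.51 and 7.31 FPKM in the controls and at 0.295 and 2.74 FPKM with carbon dots, a log2 difference of -1.62 ± 0.62 (SE, limma adjusted p = 1.0).

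**Figure D2:**
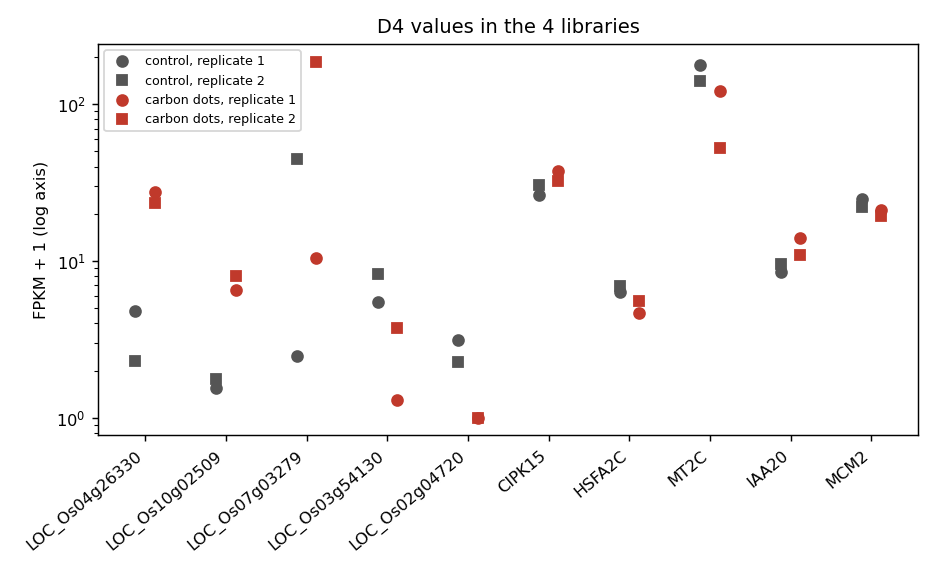
FPKM + 1 on a log axis for 5 unnamed loci and 5 named genes at D4, with controls in grey and carbon dot libraries in red, circles for replicate 1 and squares for replicate 2. LOC_Os04g26330 and LOC_Os10g02509 show separated groups, whereas at LOC_Os07g03279 the replicate numbers lie farther apart than the treatments.

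Of 15 listed cell cycle and replication genes, all members, 14 were below 0 and 1 above, with a median log2 difference of -0.11, where 53.8% of all members were below 0 and the median of all members was -0.012. In 6 of the 15 both carbon dot libraries were below both controls (10.6% of all members), and in none above (8.52%). In 9 of the 15 the value was higher in replicate 1 of both groups (39.2% of all members). The 15 genes were measured in the same 4 libraries and are not independent observations. None passed the test. PCNA, the sliding clamp of DNA polymerase, was at 77.8 and 67.2 FPKM in the controls and 66.2 and 64.9 FPKM in the carbon dot libraries, a log2 difference of -0.14 ± 0.10 (SE). The MCM genes encode the helicase that opens replication origins. MCM2 had the largest difference of the list, with 23.8 and 21.1 FPKM in the controls against 20.2 and 18.4 FPKM, a log2 difference of -0.21 ± 0.10 (SE, limma unadjusted p = 0.092, adjusted p = 1.0). MCM4, MCM5, MCM6 and MCM7 also had lower carbon dot values without overlap, and MCM3 overlapped. The kinase and cyclin genes of mitosis overlapped in every case. CDKB2-1, a mitotic kinase gene, was at 61.5 and 48.1 FPKM in the controls and 57.5 and 45.8 FPKM in the carbon dot libraries. The list median stayed below 0 without any single D4 library, between -0.21 and -0.05. In bulk roots, fewer dividing cells and less RNA per cell cannot be told apart.

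Root hair and root pattern genes held 2 of 7 members with lower carbon dot values without overlap (10.6% of all members), SCR1 and QHB. SCR1, which specifies the endodermis, was at 3.51 and 2.93 FPKM in the controls and 2.75 and 2.12 FPKM in the carbon dot libraries (log2 difference -0.30 ± 0.14, SE). QHB, a homeobox gene of the quiescent centre, was at 2.13 and 2.28 FPKM against 1.84 and 1.76 FPKM. CSLD1, a cellulose synthase-like gene needed for root hair growth, overlapped, with 5.13 and 18.8 FPKM in the controls and 10.02 and 24.9 FPKM in the carbon dot libraries.

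Cell wall genes lay close to the control level. The 9 cellulose synthase genes had a median log2 difference of -0.02, with 3 above 0 and 6 below. CESA1, a primary wall subunit, was at 299.9 and 335.5 FPKM in the controls and 298.3 and 317.1 FPKM in the carbon dot libraries. CESA7, a secondary wall subunit, was at 267.5 and 215.3 FPKM against 288.7 and 217.4 FPKM, so here the replicates were farther apart than the groups. Of 14 phenylpropanoid and lignin genes 11 were above 0 (46.2% of all members), with a median of 0.05 and 4 higher without overlap (8.52% of all members), 1 of them a tie within 0.05%. CAD2, a cinnamyl alcohol dehydrogenase gene, was at 293.6 and 285.7 FPKM in the controls and 369 and 314 FPKM in the carbon dot libraries (log2 difference 0.23 ± 0.11, SE, limma unadjusted p = 0.072). All 5 flavonoid genes were above 0, with a median of 0.15, and in each the groups overlapped.

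Expansins, which loosen the wall, gave a median log2 difference of 0.00 over 16 members, 7 above 0 and 9 below. The 2 with groups that did not overlap were EXPA2 and EXPA7, both lower, a share near the 10.6% of all members. EXPA7 was at 11.1 and 9.53 FPKM in the controls and 8.31 and 7.49 FPKM in the carbon dot libraries, a log2 difference of -0.35 ± 0.16 (SE, limma unadjusted p = 0.069). EXPA3 had the largest difference of the matched genes, with 5.33 and 18.2 FPKM against 9.96 and 28.9 FPKM, and its groups overlapped. EXPA17, the root hair expansin, was at 18.4 and 48.8 FPKM in the controls and 27.5 and 90.4 FPKM in the carbon dot libraries, higher in replicate 2 of each group.

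**Figure D3:**
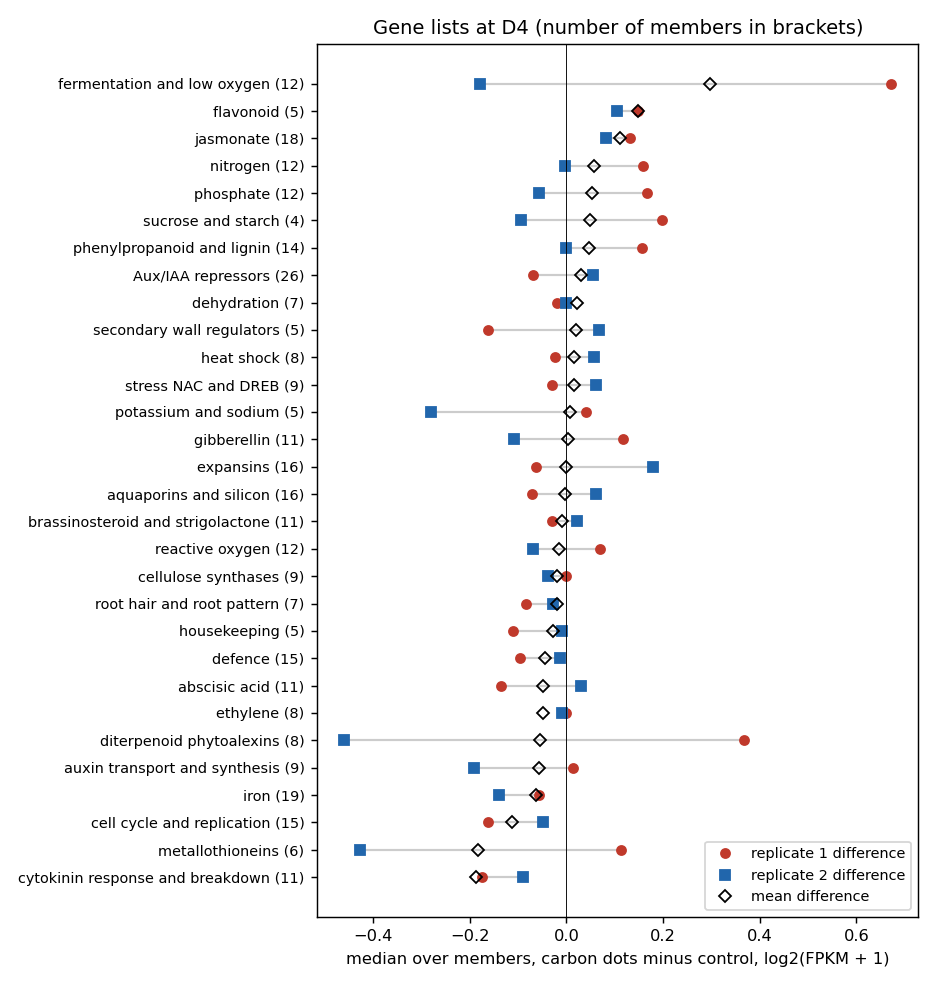
Median carbon dots minus control difference over the members of 30 gene lists at D4, in log2(FPKM + 1), for replicate 1 (red circles), replicate 2 (blue squares) and the mean of the replicates (open diamonds). The replicates lie far apart for the low-oxygen, diterpenoid and metallothionein lists. They lie close together for the ethylene, cellulose synthase, flavonoid and jasmonate lists, among others.

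No gene of the hormone lists passed the test. For cytokinin, 8 of 11 members were below 0 (53.8% of all members), with a median log2 difference of -0.19, and 2 were lower without overlap (10.6% of all members). RR10, a type-A response regulator that cytokinin induces and that dampens its signal, was at 20.2 and 32.0 FPKM in the controls and 10.3 and 22.2 FPKM in the carbon dot libraries. Each pair was lower, the groups overlapped, and the log2 difference was -0.71 ± 0.34 (SE, limma unadjusted p = 0.078). RR9 and RR10 are close relatives whose reads the counting may have split. RR4 was at 41.9 and 40.4 FPKM in the controls and 28.0 and 37.9 FPKM in the carbon dot libraries, without overlap. CKX5, a cytokinin oxidase gene, was at 3.35 and 3.30 FPKM against 2.96 and 2.42 FPKM. Leaving out single D4 libraries moved the list median between -0.46 and -0.001.

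Jasmonate genes had a positive median difference in each pair, 0.13 in replicate 1 and 0.08 in replicate 2. Of 18 members 15 were above 0, where 46.2% of all members were, and the median log2 difference was 0.11 with a range of 0.11 to 0.12 when single D4 libraries were left out. The 2 same-number differences had the same sign in 7 of the 18, against 50.6% of all members. Higher values without overlap were found for 3 (8.52% of all members), all TIFY genes, which encode the JAZ repressors that jasmonate removes and whose genes it induces. TIFY3 was at 168.5 and 183.9 FPKM in the controls and 192.1 and 196.8 FPKM in the carbon dot libraries. TIFY11C and TIFY11D had differences of 0.16 and 0.11. TIFY11E had the largest difference, with 11.7 and 2.40 FPKM in the controls and 10.02 and 8.61 FPKM in the carbon dot libraries, set by the low replicate 2 control. No jasmonate gene passed the test.

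Auxin repressor genes went in no common direction. Of 26 Aux/IAA members 16 were above 0 and 10 below, with a median of 0.03, and 3 were higher and 4 lower without overlap (8.52% and 10.6% of all members). IAA20 had the largest difference, with 7.50 and 8.51 FPKM in the controls and 13.0 and 9.86 FPKM in the carbon dot libraries (log2 difference 0.46 ± 0.24, SE, limma unadjusted p = 0.104). IAA13, the most abundant matched member, was at 252.7 and 291 FPKM against 222.1 and 366.2 FPKM. Of 9 auxin transport and synthesis genes 7 were below 0 (53.8% of all members). PIN2, an auxin efflux carrier gene of the root response to gravity, was at 32.2 and 27.1 FPKM in the controls and 27.6 and 24.0 FPKM in the carbon dot libraries. SLR1, the DELLA repressor of gibberellin responses, was at 88.8 and 89.7 FPKM in the controls and 103 and 91.8 FPKM in the carbon dot libraries, higher without overlap. Of 11 brassinosteroid and strigolactone members 2 were higher and 4 lower without overlap (8.52% and 10.6% of all members). BRI1, the brassinosteroid receptor gene, was among the lower, at 25.7 and 25.2 FPKM in the controls and 24.6 and 21.6 FPKM with carbon dots. The strigolactone receptor gene D14 was at 51.7 and 57.4 FPKM against 59.3 and 62.7 FPKM, 1 of the 2 higher.

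The low-oxygen list had the highest median, and 1 library carried it. Of 12 members 10 were above 0 (46.2% of all members), with a median log2 difference of 0.30. The median was 0.67 in replicate 1 and -0.18 in replicate 2. PDC1, a pyruvate decarboxylase gene, was at 4.26 and 1.25 FPKM in the controls and 40.3 and 0.818 FPKM in the carbon dot libraries. ADH1, an alcohol dehydrogenase gene, was at 90.3 and 64.7 FPKM against 167.9 and 48.2 FPKM. PDC2 was at 171.2 and 179.7 FPKM against 306.9 and 165.5 FPKM. In these genes the carbon dot replicate 1 library stood above the other 3 and the carbon dot replicate 2 library was the lowest. Without D4_100X replicate 1 the list median was -0.29, and the medians without single D4 libraries ran from -0.29 to 0.80. CIPK15, a kinase gene that links low oxygen to sugar signalling in rice, was the 1 of 12 members with an unadjusted limma p under 0.05. Of all members, 0.92% were higher and 0.957% lower at this limit. Its pair differences were 0.51 in replicate 1 and 0.08 in replicate 2. It was at 25.4 and 29.3 FPKM in the controls and 36.7 and 31.2 FPKM in the carbon dot libraries, a log2 difference of 0.30 ± 0.11 (SE, limma unadjusted p = 0.035, adjusted p = 1.0).

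**Figure D4:**
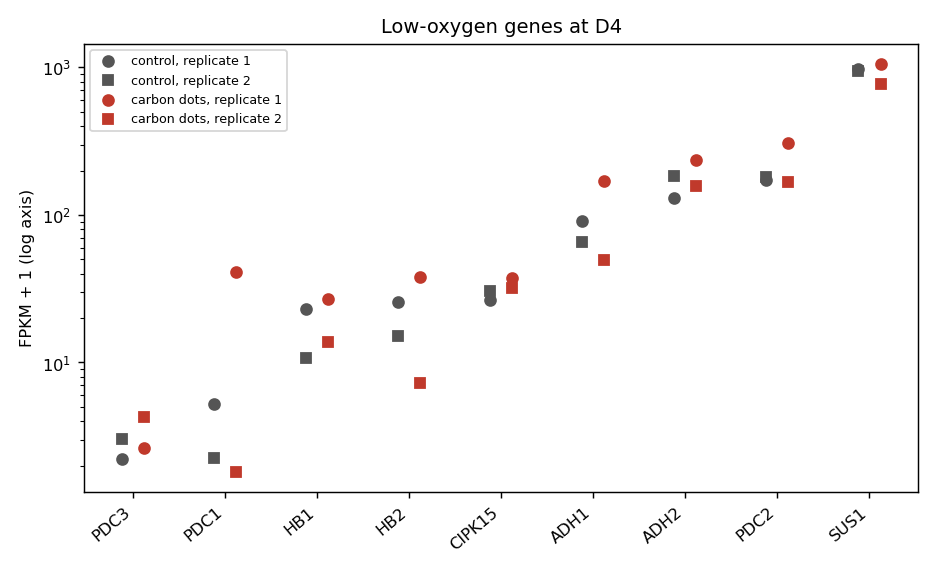
FPKM + 1 on a log axis for the 9 low-oxygen members with a matched name, with controls in grey, carbon dot libraries in red, circles for replicate 1 and squares for replicate 2. The red circle is the highest value for 8 of the 9, PDC3 being the exception, and the red square lies among or below the controls except for PDC3 and CIPK15.

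Water channel and silicon genes followed the replicate number. Of 16 aquaporin and silicon genes, 15 were higher in replicate 2 than in replicate 1 in both groups, where 32.1% of all members were (39.2% were higher in replicate 1 in both). Their median treatment difference was -0.002, and no member's groups were separate. TIP1-1, a tonoplast water channel, was at 1581 and 2084 FPKM in the controls and 1581 and 2200 FPKM in the carbon dot libraries. The silicon channel gene NIP2-1 was at 175.2 and 295.6 FPKM against 212.9 and 259.2 FPKM.

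Iron genes were also mostly higher in replicate 2. Of 19 members 16 were below 0 (53.8% of all members), with a median log2 difference of -0.06. In 13 the value was higher in replicate 2 in both groups (32.1% of all members). Without overlap, 1 was lower (10.6% of all members) and 0 were higher (8.52%). NAS1, a nicotianamine synthase gene for iron chelation, was at 205.3 and 387.4 FPKM in the controls and 219.5 and 331.5 FPKM in the carbon dot libraries. NAS1 and NAS2 are close copies whose reads may have been split. YSL15, the iron-phytosiderophore transporter gene, was at 19.9 and 76.4 FPKM against 37.3 and 78.6 FPKM. Without single D4 libraries the list median ran from -0.45 to 0.21, so its sign was not stable.

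For phosphate, 7 of 12 members were above 0 with a median of 0.05, with 2 higher without overlap (8.52% of all members) and 1 lower (10.6%). The 2 higher were SPX1 and SPX2, which encode phosphate-sensing proteins. The lower was PHT1-1, a phosphate transporter gene, at 27.4 and 27.5 FPKM in the controls and 23.3 and 25.1 FPKM with carbon dots. SPX2 was at 2.06 and 2.97 FPKM in the controls and 3.31 and 4.29 FPKM in the carbon dot libraries (log2 difference 0.45 ± 0.24, SE, limma unadjusted p = 0.102). PHT1-2, a phosphate transporter gene, was at 6.66 and 28.7 FPKM against 11.4 and 38.8 FPKM, and its groups overlapped. Among 12 nitrogen genes 8 were above 0 (46.2% of all members), with a median of 0.06. GS1-1, a cytosolic glutamine synthetase gene, was at 526.3 and 556.4 FPKM in the controls and 532.5 and 509.7 FPKM in the carbon dot libraries.

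Of 8 heat shock members 2 were higher and 1 lower without overlap (8.52% and 10.6% of all members), and none passed the test. HSFA2C, a heat stress transcription factor gene, was at 5.34 and 5.90 FPKM in the controls and 3.62 and 4.52 FPKM in the carbon dot libraries. The groups did not overlap, and the log2 difference was -0.39 ± 0.13 (SE, limma unadjusted p = 0.020, adjusted p = 1.0). HSP17.4, a small heat shock chaperone gene, was at 2.45 and 2.73 FPKM against 4.14 and 3.48 FPKM, without overlap (log2 difference 0.42 ± 0.19, SE). The heat shock list had a median of 0.02, with 4 above 0 and 4 below.

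MT2C, a metallothionein gene whose product binds metals, had the largest matched difference of its list. It was at 177.4 and 139.7 FPKM in the controls and 121.3 and 51.3 FPKM in the carbon dot libraries, without overlap. The log2 difference was -0.99 ± 0.50 (SE, limma unadjusted p = 0.090, adjusted p = 1.0). MT1B was at 164.3 and 461.9 FPKM in the controls and 403.2 and 585.5 FPKM in the carbon dot libraries. Each pair was higher there, and the groups overlapped. Over 6 metallothionein members the median was 0.11 in replicate 1 and -0.43 in replicate 2.

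Defence genes were higher in replicate 2 of both groups for 12 of 15 members, and diterpenoid phytoalexin genes for 7 of 8 (32.1% of all members). MAS, a momilactone synthase gene, was at 3.39 and 12.9 FPKM in the controls and 3.32 and 10.7 FPKM in the carbon dot libraries. CHT1, a chitinase gene, was at 15.7 and 24.8 FPKM against 12.1 and 20.1 FPKM. Reactive oxygen genes had a median of -0.02 over 12 members, and CATA, a catalase gene, was at 922.7 and 1020 FPKM in the controls and 1020 and 966.6 FPKM in the carbon dot libraries. Abscisic acid, dehydration, ethylene, gibberellin and stress factor lists had medians between -0.05 and 0.02. Those of the secondary wall regulator, brassinosteroid and strigolactone, potassium and sodium, sucrose and starch, and housekeeping lists were 0.02, -0.01, 0.01, 0.05 and -0.03, and no member of any of these 10 lists passed the test.

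**Figure D5:**
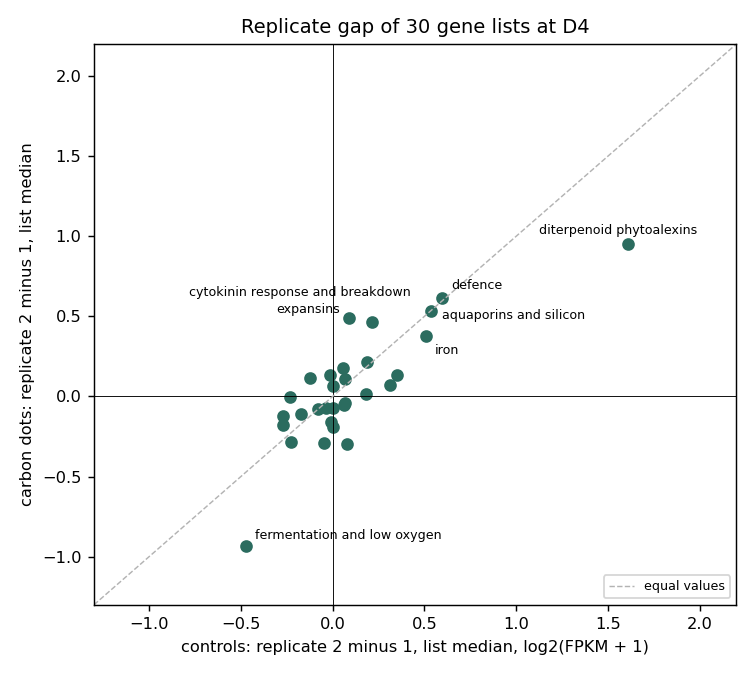
Median replicate 2 minus replicate 1 difference over the members of each of 30 lists, in log2(FPKM + 1), in the controls (x axis) and in the carbon dot libraries (y axis). The diterpenoid, defence, aquaporin and iron lists were higher in replicate 2 of both groups, and the low-oxygen list was lower in replicate 2 of both.

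The D4 difference was set against that at D6 by the interaction in the same limma fit. At D6 119 of 22794 loci passed (0.522%), but a call at D6 and none at D4 does not show that the effects differ. The interaction itself passed at 2 loci (0.00877%), neither with a gene name here. LOC_Os10g02509 was at 0.549 and 0.761 FPKM in the D4 controls and at 5.54 and 6.97 FPKM with carbon dots at D4. At D6 it was the other way round, at 5.32 and 3.93 FPKM in the controls and 0.803 and 0.423 FPKM in the carbon dot libraries. The log2 difference was 2.13 ± 0.20 (SE) at D4 and -1.80 ± 0.20 at D6, and the interaction was 3.93 ± 0.28 (limma adjusted p = 0.0397).

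LOC_Os01g71350 was at 1.27 and 1.44 FPKM in the D4 controls and 1.13 and 1.27 FPKM in the D4 carbon dot libraries. At D6 it stood at 7.04 and 9.13 FPKM in the controls and 52.9 and 53.6 FPKM in the carbon dot libraries. The interaction was -2.69 ± 0.20 (SE, limma adjusted p = 0.0397). Neither interaction passed when any single library was left out, with a pseudocount of 0.1 or with no filter. With a mean of at least 5 FPKM over the 8 libraries LOC_Os01g71350 did not pass, and LOC_Os10g02509 was below the filter and not tested. A replicate block moved this count too, and its values stand with the processing alternatives.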

How the data were processed

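Poly(A) RNA from 8 root libraries was analysed from the FPKM that the authors deposited. The tools named in the submitters' processing notes are featureCounts 1.6.4, SAMtools, HISAT2 and fastp; for their settings, the build and the annotation, the sources used here say nothing. Log2(FPKM + 1) was fitted with limma 3.58.1 in R 4.3.3 (eBayes with trend), with 4 group means over 8 libraries, 4 residual degrees of freedom, and loci at 1 FPKM or more in 2 or more libraries. Adjustment was by Benjamini-Hochberg over 22794 loci, with a threshold of 0.05. The script was tested on simulated data.

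The members and lists were chosen with earlier results of these data known. Names are indirect: 292 of 389 listed loci had a recalled symbol matched in RefSeq ASM3414082v1 on the same chromosome within 0.1 chromosome lengths. Some symbols were corrected, and 10 loci added, after the table was opened. By rule, unnamed loci were the 2 with the largest smaller pair difference in each direction at a mean of at least 5 FPKM, and those past the interaction threshold. Genes were named by abundance, difference, paired difference or unadjusted p within a list. Further members were named as examples after their values were seen.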

Additional observations from a re-analysis of the deposited data

Results flagged for a closer look

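In the main fit the carbon dot effect differed between D4 and D6 at 2 loci by the interaction term (limma, adjusted p = 0.0397 for each). Neither passed with a pseudocount of 0.1, with no filter or with the replicate block in 8 libraries. The D4 minus D6 difference was 3.93 on the log2 scale for LOC_Os10g02509, higher with carbon dots in both D4 libraries and lower in both D6 libraries. It was -2.69 for LOC_Os01g71350, where the carbon dot libraries stood above the controls at D6 and the groups overlapped at D4.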

How the results depend on the processing

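The D4 count of 0 was 2, both lower, with no filter, and 1, LOC_Os07g03279 (limma adjusted p = 0.0374; 0.771 to 1.0 under its other alternatives), with the replicate block in only the 4 D4 libraries; it stayed 0 under the other alternatives, leaving out each library included (0 to 0). The interaction count of 2 was 0 with a pseudocount of 0.1, with no filter, with a mean of at least 5 FPKM (LOC_Os10g02509 not tested), with the replicate block in 8 libraries and without each library (0 to 0), and 100 with the replicate block within D4 only. It was 2 with median centring, robust eBayes and the D6 numbers crossed. The cause was not tested. No label says that the numbers pair libraries; replicate differences correlated between treatments at 0.602 at D4 and -0.112 at D6. The blocks within D4 and crossed at D6, and the alternatives that follow, were chosen after seeing the data. Members both higher, both lower and opposite numbered 30, 28 and 49 with a pseudocount of 0.1, and 6, 0 and 2 among those with a mean of at least 5 FPKM, where 1151 were higher and 1397 lower without overlap. Of 30 list medians 5 kept their sign without any D4 library, and of 56 named loci 20 kept theirs under every alternative run. Depth is unknown.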
